A study of Mus musculus with 6 samples.

Results

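The response of bone marrow-derived macrophages (BMDMs) to IL4 in the presence of regorafenib was read as the ratio of the library of M2 cells with the drug to the library of M0 cells with the drug. These are 2 of the 6 libraries of the series, with 1 library per condition. Of the 54446 gene IDs, 13841 had at least 10 counts in one of the 2 libraries and were compared. The BMDMs came from male BALB/c mice of 6 to 8 weeks and were differentiated for 7 days in medium with 20% L929-conditioned medium, which supplies CSF-1. M2 cells with the drug received regorafenib (1 µM, the dose that the methods give for M2 cells) 1 hour before IL4 (20 ng/mL) for 24 hours. M0 cells with the drug received regorafenib and no polarizing cytokine. How long the M0 cells were kept with the drug is not given in the sources used here. A difference in time between the 2 libraries thus cannot be told apart from the response to IL4. The M2 and M0 control libraries, which received DMSO in place of the drug by the labels, serve here only to show where the response with the drug differs. How many mice or cultures stand behind a library is not given in the sources used here.

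IL4 binds a receptor made of the IL-4 receptor alpha chain (Il4ra) and either the common gamma chain (Il2rg) or Il13ra1. The receptor activates Janus kinases, which phosphorylate STAT6, and STAT6 enters the nucleus and binds promoters and enhancers of its target genes. In macrophages this produces the alternatively activated (M2) state, known for chitinase-like proteins, C-type lectins and chemokines such as CCL17, CCL22 and CCL24. Regorafenib is an oral multikinase inhibitor of receptors for VEGF, PDGF and FGF, KIT, RET, CSF1R and RAF kinases.

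Because each side of the comparison is 1 library, no difference below has a replicate check and no p-value is given. The 95% intervals cover counting error only, and the reads carry no molecular identifiers. A gene was called when its ratio was at least 2-fold and its interval excluded a ratio of 1, with a count of 0 set to 3 counts, so that a fold against a library at 0 is a lower bound. All ratios are log2 of TMM-scaled counts, M2 over M0, and counts are written in the order M2 then M0. In bulk RNA, fewer cells of a type and less RNA per cell cannot be told apart.

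The M2 and M0 libraries with the drug held 25359309 and 29335774 counts, against 34898342 and 27586063 in the controls. Mitochondrially encoded genes held 1.53% and 1.43% of the counts with the drug, and 1.27% and 1.15% in the controls. All 9 macrophage markers were detected, among them Csf1r with 78969 and 101392 counts, Adgre1 with 38729 and 30622, and Spi1 with 8008 and 9541. Of the 9, 2 were called lower (4.06% of all genes compared) and none higher, the lowest being Fcgr1 at a log2 ratio of −2.13. The summed level of the 9 was 33825 CPM (counts scaled by library size and TMM factor) in M2 and 49015 in M0 with the drug. The libraries held 0.107 and 0.0303 CPM of the 8 lymphocyte markers, and 0.0357 and 0.121 CPM of the 5 erythroid markers. The 8 dendritic cell markers summed to 2.54 CPM in M2 and 0.394 in M0, of which Zbtb46 held 59 and 5 counts, while Xcr1 and Siglech were at 0 in both. The 8 neutrophil markers summed to 133 and 158 CPM, of which Mpo held 3646 and 5124 counts. Ly6g and Ltf were at 0 in both, and S100a9 (11 and 2 counts) and Cxcr2 (18 and 1 counts) were called higher. The 8 markers of eosinophils, basophils and mast cells summed to 8.44 and 1.49 CPM, of which Siglecf, called higher, held 233 and 34 counts and Kit, called lower, 3 and 15, while Epx, Prg2, Mcpt8, Cpa3, Fcer1a and Ms4a2 were at 0 in both. The 8 fibroblast and stromal markers summed to 19.3 and 22.3 CPM. Their part in the results was not tested.

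The promoters of the genes with the highest ratios are shown first, since STAT6 is known to act at such sequences. Of the 15 genes with the highest ratios, 11 had an entry in the RefSeq table (GRCm38.p6), which gives 250 bases before and 50 after the start of a gene. The palindromic word TTCNNNNGAA, a STAT-type word of 10 bases that reads the same on both strands, was searched in each window. It was present in the windows of Retnla and Pdcd1lg2, and not in those of the other 9 genes with an entry. The 4 highest genes with an entry follow, 5′ to 3′ on the strand of the gene, with the word in capitals.
Rnase2a, chr14:51256063-51256362, minus strand: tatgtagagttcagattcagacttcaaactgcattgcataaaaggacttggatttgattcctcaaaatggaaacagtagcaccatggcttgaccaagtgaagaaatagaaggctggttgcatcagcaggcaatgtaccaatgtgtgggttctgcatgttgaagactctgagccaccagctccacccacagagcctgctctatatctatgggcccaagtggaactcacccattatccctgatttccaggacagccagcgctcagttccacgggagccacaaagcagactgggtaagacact
Retnla, chr16:48842359-48842658, plus strand: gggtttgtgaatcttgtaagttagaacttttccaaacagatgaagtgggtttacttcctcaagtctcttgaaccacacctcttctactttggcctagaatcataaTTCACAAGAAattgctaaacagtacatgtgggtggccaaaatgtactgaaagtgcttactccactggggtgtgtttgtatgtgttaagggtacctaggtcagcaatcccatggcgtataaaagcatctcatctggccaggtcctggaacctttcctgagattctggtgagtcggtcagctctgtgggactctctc
Chil3, chr3:106167515-106167814, minus strand: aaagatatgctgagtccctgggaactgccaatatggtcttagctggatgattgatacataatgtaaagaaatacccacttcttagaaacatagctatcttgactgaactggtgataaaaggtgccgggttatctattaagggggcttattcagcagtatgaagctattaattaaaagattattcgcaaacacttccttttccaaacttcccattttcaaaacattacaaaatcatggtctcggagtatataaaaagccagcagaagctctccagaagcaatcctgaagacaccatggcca
Pdcd1lg2, chr19:29410669-29410968, plus strand: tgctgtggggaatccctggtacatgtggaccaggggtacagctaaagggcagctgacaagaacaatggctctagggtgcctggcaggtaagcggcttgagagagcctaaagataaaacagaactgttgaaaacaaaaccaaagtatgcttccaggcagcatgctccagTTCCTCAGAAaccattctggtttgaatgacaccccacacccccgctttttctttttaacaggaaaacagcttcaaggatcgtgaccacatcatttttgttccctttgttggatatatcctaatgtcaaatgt

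The word starts 145 bases before the annotated start of Retnla and 82 bases before that of Pdcd1lg2. Over all 32851 windows in the table, 6.95% hold the word. Among the compared genes with a window, it was present for 6.70% of all 9905, for 11.3% of the 354 called higher, for 16.3% of the 135 called higher and past 4-fold, and for 7.20% of the 375 called lower. A match is only a run of letters in this window, and the absence of one says nothing of STAT6 at these genes or at their enhancers.

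With the drug present, IL4 was followed by higher levels of 538 genes (3.89% of those compared) and lower levels of 562 genes (4.06%). Of the genes called higher, 445 were protein coding, 197 were past 4-fold and 93 past 8-fold, and 18 had no count in the M0 library. Of the genes called lower, 441 were protein coding, 134 were past 4-fold and 39 past 8-fold, and 8 had no count in the M2 library. The genes that went up thus went further than those that went down, while the median log2 ratio of all genes compared was −0.03.

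**Figure D1:**
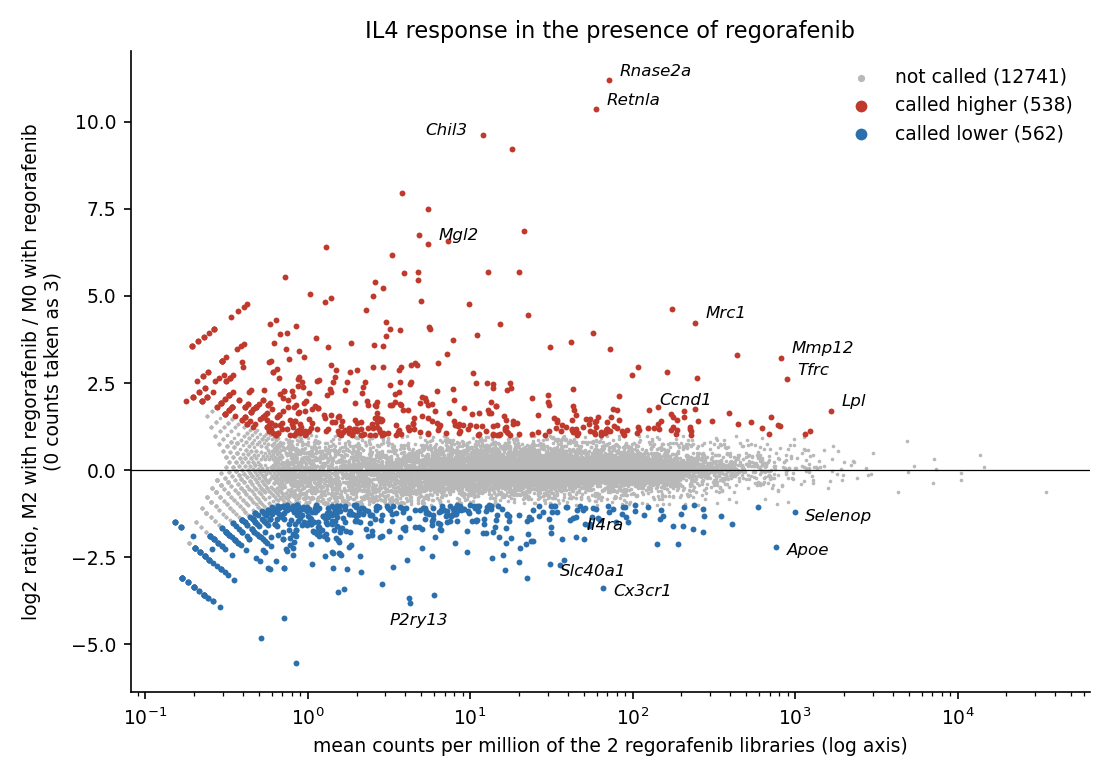
The log2 ratio of M2 to M0 with regorafenib is plotted against the mean level of the 2 libraries (CPM, log axis), 1 point per gene with at least 10 counts in one of them. The 538 genes called higher reach 11.20 (Rnase2a), and the 562 called lower lie below −1 over the whole range of levels.

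The highest ratios belonged to genes that were almost silent in M0 cells and clearly read in M2 cells. The ribonuclease gene Rnase2a (chr14:51255262-51256112, GRCm38) had 4003 counts in M2 and 2 in M0, a log2 ratio of 11.20 (95% interval 9.35 to 14.25). Retnla (chr16:48842551-48844461), which encodes the secreted protein RELMα, had 3348 counts in M2 and 0 in M0, and was at least 1315-fold higher. Chil3 (chr3:106147554-106167564), the chitinase-like protein Ym1, had 675 counts and 1 count (9.64, interval 7.15 to 14.94). In each of these genes the M2 library was the only one of the pair with more than 2 counts. The share of 100-base words of the transcripts found in another gene was 0% for Rnase2a and Retnla and 4.93% for Chil3, shared with Chil4.

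Pdcd1lg2, which encodes the checkpoint ligand PD-L2, had 211 counts in M2 and 1 in M0 (7.96, interval 5.46 to 13.27). Il4i1, an L-amino acid oxidase first known as an IL4-induced gene, had 1198 counts in M2 and 12 in M0 (6.88, interval 6.07 to 7.83). Of its exonic bases, 85.9% overlap exons on the other strand, so part of its reads may belong to a neighbour if strand was not used in the counting. Ocstamp, a transmembrane protein needed for the fusion of osteoclasts and giant cells, had 272 counts and 0 counts and was at least 106.8-fold higher. The chemokine gene Ccl22 had 405 counts against 5 (6.58, interval 5.34 to 8.21), and the lectin gene Mgl2 had 305 against 4 (6.49, interval 5.12 to 8.37). A chemokine and a lectin were thus among the 10 genes with the highest ratios.

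Other genes among the 15 highest are less known as macrophage genes. They were the homeobox gene Msx3 (307 and 2 counts), the sodium channel gene Scn3a (186 and 0), the nuclear corepressor gene Hr (703 and 16), the sialyltransferase gene St8sia1 (263 and 6), the tight junction gene Cldn11 (1093 and 25) and the microtubule-associated protein gene Map2 (216 and 5). Their log2 ratios lay between 5.67 for Map2 and 7.50 for Msx3, and Scn3a was at least 73.1-fold higher.

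**Figure D2:**
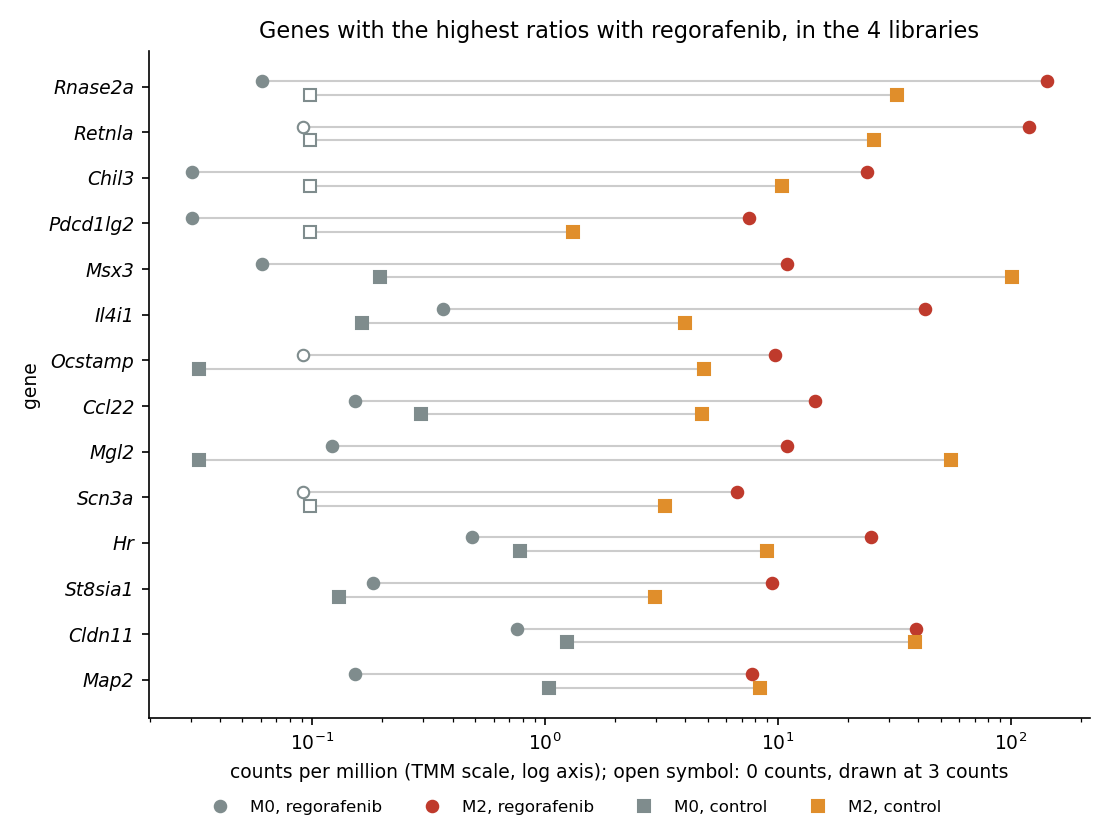
Levels (CPM, log axis) of 14 of the 15 genes with the highest ratios are drawn in the 4 libraries, circles with the drug and squares without it. Open symbols are libraries at 0 counts, drawn at 3 counts, and levels are to be compared within a gene only. In every one of the 14 genes both M2 symbols lie to the right of both M0 symbols. Within the pair with the drug, this follows from the rule that chose the genes.

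The 15 lowest ratios lay between −3.80 and −2.58, and receptor genes were among them. Cx3cr1, the fractalkine receptor that is known from resident macrophages, microglia and patrolling monocytes, had 324 counts in M2 and 3949 in M0, a log2 ratio of −3.37 (interval −3.54 to −3.21). The purinergic receptor gene P2ry13 had 16 and 263 counts (−3.80, interval −4.63 to −3.08). Adgre4, an adhesion GPCR gene of the F4/80 family, had 17 and 256 counts (−3.68), and the haptoglobin gene Hp had 26 and 365 (−3.57). All 4 were more than 10-fold higher in M0 than in M2 by their counts. The iron exporter gene Slc40a1 (ferroportin) had 233 and 1764 counts (−2.68, interval −2.89 to −2.49), and the sorting receptor gene Sorl1 had 131 and 1333 (−3.11, interval −3.38 to −2.85). Clec4n, the fungal-sensing receptor Dectin-2, had 302 and 2135 counts (−2.58, interval −2.76 to −2.41), and the potassium channel gene Kcnj10 had 261 and 2040 (−2.73). The others of the 15 lowest were Pilra, Ltb, Cxcr3, Gpr162, Kif26b, C1s1 and Clmp, with log2 ratios between −3.42 and −2.63.

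**Figure D3:**
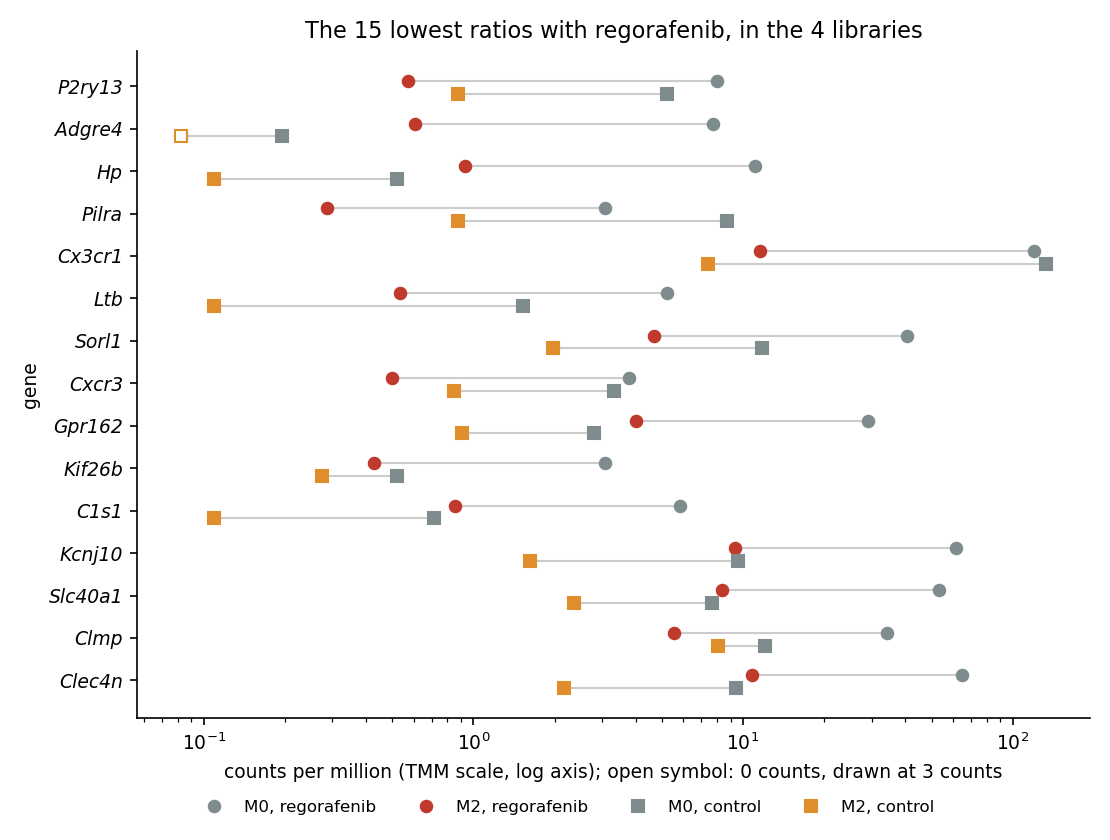
Levels (CPM, log axis) of the 15 genes with the lowest ratios are drawn in the 4 libraries, with the same symbols as for the highest genes and the same comparison within a gene only. With the drug, all 15 lie lower in M2 than in M0 by the rule that chose them. For Adgre4, Hp, Gpr162, C1s1, Slc40a1 and Clec4n both control libraries lie at or below the M2 library with the drug.

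Most genes of the IL4 signal, Stat6 and Jak1 among them, were not called, while Cish, Socs1 and Socs2 were higher in M2 and Il4ra and Il13ra1 lower. Of 17 compared genes of IL-4 receptor signalling, 3 were called higher and 2 lower, against 3.89% and 4.06% of all genes compared. The median log2 ratio of the list was −0.03, the same to 2 decimals as that of all genes. The 3 called higher were inhibitors of cytokine signalling. Cish had 533 counts in M2 and 23 in M0 (4.77, interval 4.17 to 5.44), Socs1 had 297 and 21 (4.06, interval 3.42 to 4.77), and Socs2 had 44 and 10 (2.37, interval 1.36 to 3.53). The receptor chains Il4ra (704 and 2123 counts, −1.36, interval −1.48 to −1.23) and Il13ra1 (52 and 202 counts, −1.72, interval −2.19 to −1.27) were the 2 called lower. Stat6 itself had 8001 and 10019 counts, a log2 ratio of −0.09 (interval −0.13 to −0.05), and Jak1 had 7048 and 8464 (−0.03).

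Known IL-4 marker genes were almost all higher in M2 cells in the presence of the drug. Of 21 compared, 18 were called higher and none lower, against 3.89% and 4.06% of all genes compared. The median log2 ratio of the list was 4.24 when genes at 0 counts stand at their bound (5.04 with 0 counts set to 0.5). Mrc1, the mannose receptor CD206, had 12895 counts in M2 and 805 in M0 (4.24, interval 4.14 to 4.34). Slc7a2, a transporter of arginine and lysine, had 22327 and 2644 counts (3.31, interval 3.26 to 3.37), and Flt1, a receptor for VEGF-A and PlGF, had 3014 and 234 (3.92, interval 3.73 to 4.12). Clec7a, the beta-glucan receptor Dectin-1, had 7996 and 1333 counts (2.82, interval 2.74 to 2.91). The chemokine genes Ccl17 and Ccl24 had 38 and 0 counts and 181 and 29 counts, so that Ccl17 was at least 14.9-fold higher. The 3 that were not called were Tgm2 (4858 and 4895 counts, 0.23), Ptgs1 (3104 and 2247 counts, 0.70) and Il1rn (166 and 183 counts, 0.10). Tgm2, a transglutaminase often used as a marker of M2 cells, thus differed little in counts between the libraries with the drug. Alox15 and Cd209e had too few counts to be compared.

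Transcription factors known from IL4-treated macrophages went largely the same way. Of 16 compared, 9 were called higher and 1 lower, against 3.89% and 4.06% of all genes compared, with a median of 1.36. Batf3 had 194 counts in M2 and 14 in M0 (4.03, interval 3.25 to 4.93), Irf4 had 1607 and 162 (3.55, interval 3.31 to 3.79) and Egr2 had 3731 and 392 (3.49, interval 3.34 to 3.64). Irf4 and Egr2 are known to act downstream of STAT6 in the M2 programme. Myc (841 and 193 counts, 2.36), Nfil3 (1091 and 307, 2.07), Pparg (1345 and 411, 1.95), Bhlhe40 (6288 and 2088, 1.83), Klf4 (2362 and 1074, 1.37) and Ppargc1b (343 and 160, 1.34) were also called higher. Pparg and its coactivator Ppargc1b are known for the fatty acid metabolism of M2 cells. Maf was the 1 called lower, with 2467 and 8862 counts (−1.61, interval −1.67 to −1.54).

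Of 20 compared genes of lipid uptake and fatty acid oxidation, 2 were called higher and 1 lower, with a median of 0.08, where 3.89% and 4.06% of all genes compared were called higher and lower. The 2 were the fatty acid translocase gene Cd36 (10537 and 3659 counts, 1.76, interval 1.71 to 1.82) and the lipoprotein lipase gene Lpl (71224 and 25672, 1.71, interval 1.69 to 1.73), and the 1 was the cholesterol exporter gene Abca1 (730 and 2520, −1.55, interval −1.67 to −1.43). The enzymes of mitochondrial oxidation, such as Cpt1a (−0.10), Acadm (0.11) and Hadha (0.26), were not called. Of 15 compared genes of arginine and polyamine metabolism, 2 were called higher and none lower, of which the transporter gene Slc7a2 is reported here. Odc1 (573 and 400 counts, 0.76), the first enzyme of polyamine synthesis, and Srm (443 and 347, 0.59) were not called, although the median of the list was 0.59 and 12 of 15 intervals lay above a ratio of 1, against 25.6% of all genes compared. None of 20 cholesterol synthesis genes was called (median 0.34, 19 of 20 ratios and 16 of 20 intervals above 1), and of 17 glycolysis genes only Pfkl was called, lower (874 and 2101 counts, −1.03, median of the list 0.09).

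Antigen presentation genes rose in part. Of 17 compared genes of MHC class II and costimulation, 7 were called higher and 2 lower, with a median of 0.97. Over all genes compared, 3.89% were called higher and 4.06% lower. The invariant chain gene Cd74 had 21546 counts in M2 and 9746 in M0 (1.38, interval 1.35 to 1.42), H2-Aa had 5680 and 2923 (1.20) and H2-Eb1 had 2771 and 1491 (1.13). H2-Ab1 (4825 and 3030 counts, 0.91) and the class II transactivator gene Ciita (1144 and 686, 0.97) stayed just under 2-fold. Among the ligands for T cells, Pdcd1lg2 and Cd274, which encode PD-L2 and PD-L1, were called higher, the latter with 2340 and 1163 counts (1.25, interval 1.14 to 1.35). Icosl (138 and 883 counts, −2.44) and Cd86 (30 and 95 counts, −1.43) were called lower. The costimulatory ligands thus did not go 1 way.

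Chemokine genes and genes of cell fusion and matrix turnover were changed in both directions. Of 16 chemokine and chemokine receptor genes, 6 were called higher and 3 lower (median −0.05), against 3.89% and 4.06% of all genes compared. Ccl7 had 368 counts in M2 and 43 in M0 (3.33, interval 2.88 to 3.83), and Ccl2, which attracts monocytes, had 649 and 149 (2.36, interval 2.10 to 2.63). Ccl8 had 34 and 2 counts, Ccl12 had 14 and 1, and Ccl6 and Ccl9 were called higher by 1.13 and 1.21. Those called lower were Cx3cr1, Cxcl1 (15 and 50 counts) and Cxcl3 (7 and 22 counts), the last with an interval from −2.89 to −0.14. Of 17 genes of fusion and matrix turnover, 5 were called higher and 2 lower (median 0.60). Besides Ocstamp these were Dcstamp, its partner in cell fusion (577 and 46 counts, 3.89, interval 3.45 to 4.35), Atp6v0d2 (11989 and 2265, 2.64), and the matrix metalloproteinase genes Mmp12 (41211 and 5178, 3.23, interval 3.19 to 3.27) and Mmp13 (652 and 139, 2.47). Mmp14 (50 and 323 counts, −2.45) and Mmp8 (391 and 1610, −1.80) were called lower, so that members of 1 enzyme family lay on both sides.

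Lectins and genes of resident macrophages were divided as well. Of 16 lectin and scavenger receptor genes, 6 were called higher (Mrc1, Mgl2, Clec7a, Clec10a, Cd36 and Olr1) and 4 lower (Clec4n, Stab1, Clec4e and Clec4d). The median was 0.26, and 3.89% and 4.06% of all genes compared were called higher and lower. Mrc1, Mgl2, Clec7a and Clec10a are also in the IL-4 marker list, and Cd36 is also in the list of lipid uptake. Stab1 had 5852 counts in M2 and 20085 in M0 (−1.54, interval −1.58 to −1.50). Clec4n, Clec4e and Clec4d, which encode Dectin-2, Mincle and a related receptor, are microbe sensors of 1 gene cluster. Of 15 genes of apoptotic cell clearance and resident macrophages, 2 were called higher and 5 lower, with a median of −0.29. Apoe, the apolipoprotein of cholesterol transport, had 7659 counts in M2 and 41460 in M0 (−2.20, interval −2.23 to −2.16), Selenop had 16828 and 45827 (−1.21, interval −1.23 to −1.18) and Gas6, the bridging ligand of TAM receptors, had 4382 and 12900 (−1.32, interval −1.37 to −1.27). Slc40a1 and Hpgd were also called lower, and Timd4 (17 and 7 counts) and Cd5l (142 and 75 counts) were those called higher. With 1 CPM added to each level, neither of these 2 was called higher.

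Genes of inflammation and interferon responses were lower or unchanged in call. Of 24 type I interferon-stimulated genes, 6 were called lower and none higher, against 4.06% and 3.89% of all genes compared, with a median of −0.57. The 6 were Cxcl10 (15 and 66 counts, −1.90), Ifit3 (81 and 251, −1.39), Rtp4 (275 and 782, −1.27), Ifit1 (133 and 373, −1.25), Mx2 (36 and 95, −1.16) and Oas2 (1059 and 2686, −1.11). Of the transcripts' 100-base words, 31.7% of Ifit3 occur in another gene, mainly Ifit3b. Of 14 markers of the inflammatory (M1) state, 3 were called lower, namely the Fc receptor gene Fcgr1 (229 and 1184 counts, −2.13), Tlr2 (1478 and 7565, −2.12) and Saa3 (176 and 792, −1.93). The cytokine genes Tnf (342 and 623 counts, −0.63) and Il1b (84 and 98, 0.01) were not called. The M1 signature used in the study gave 15 of 44 genes called lower and none higher (median −0.71), and its M2 signature 18 of 30 called higher and none lower (median 1.17). The study took its curated gene sets from the literature and applied its signatures to M2 cells of this series. The signatures share genes with the lists above, such as Mrc1 and Clec7a in the M2 signature. Cxcl10, Ifit1, Tlr2 and Saa3 are such genes in the M1 signature. Their counts are thus not independent evidence of a direction beside those lists.

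Cell cycle genes were read slightly higher in M2 than in M0 with the drug. Of 26 compared, 24 had a ratio above 1 with an interval that excluded 1, where 25.6% of all genes compared had such an interval, but only Ccnd1 and Mcm5 passed 2-fold. The median was 0.67. Ccnd1, the D-type cyclin that CSF-1 and other mitogens induce, had 5438 counts in M2 and 1921 in M0 (1.74, interval 1.66 to 1.81), and Mcm5, a subunit of the replicative helicase, had 2196 and 1260 (1.04, interval 0.94 to 1.14). Mki67 had 6231 and 5181 counts (0.50, interval 0.45 to 0.56) and Top2a 5118 and 3788 (0.67, interval 0.61 to 0.73). Of 13 genes of the ERK response, 2 were called higher, against 3.89% of all genes compared, with a median of 0.42. Without the drug, 1 of 16 was called higher and 4 lower, against 3.8% and 6.98% of all genes, with a median of −0.63. The 2 called higher with the drug were Dusp4 and Fosl1. Dusp4, a phosphatase that switches off ERK, had 3738 and 998 counts (2.14, interval 2.04 to 2.24), and Fosl1 had 19 and 7 counts (1.68, interval 0.36 to 3.17). Exons on the other strand overlap 57.2% of the exonic bases of Fosl1, and the strand used in the counting is not given.

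**Figure D4:**
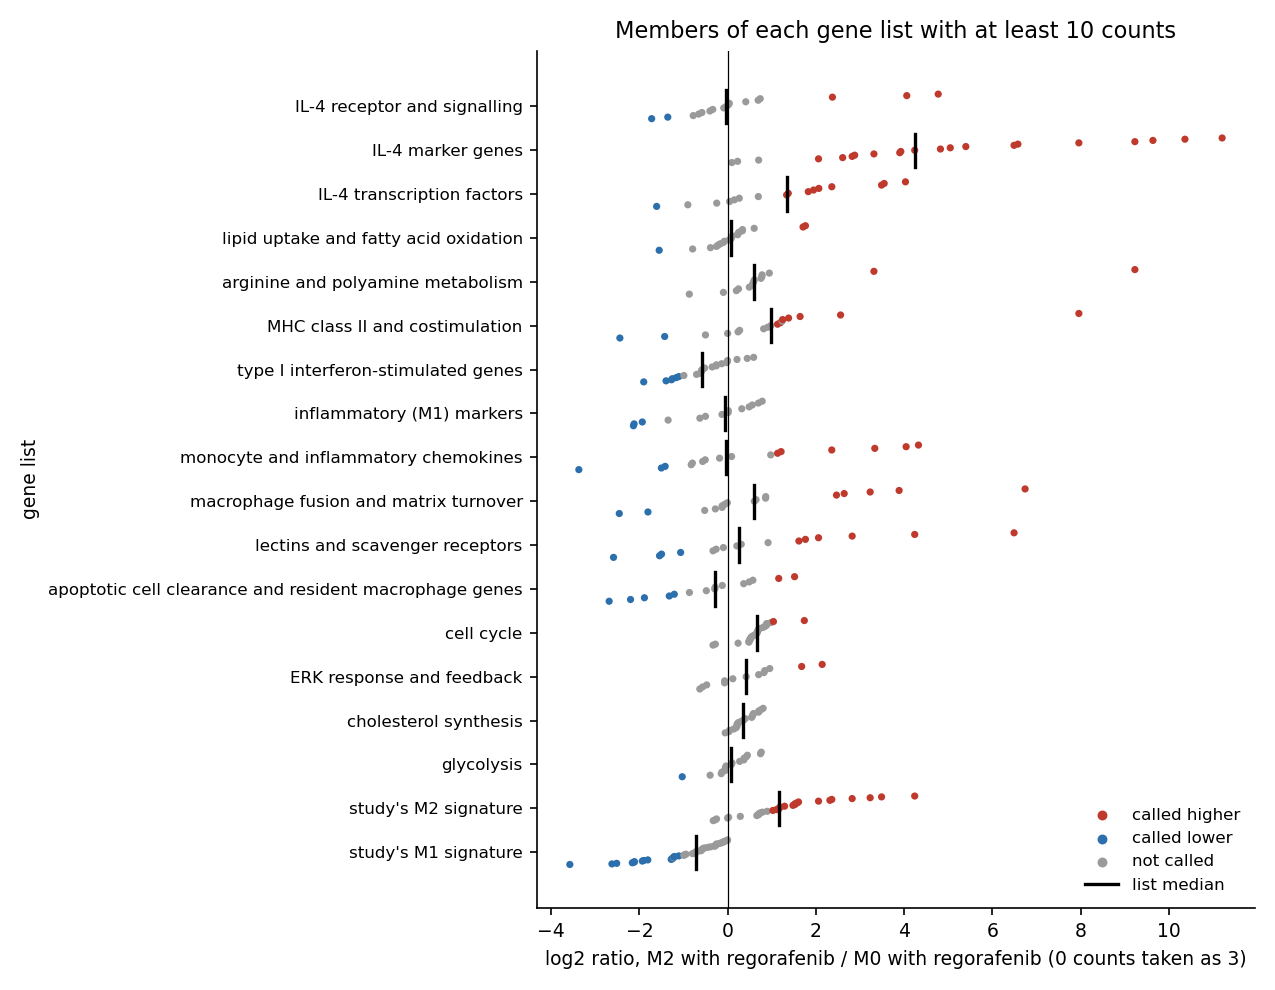
Each point is the log2 ratio of M2 to M0 with regorafenib of 1 list member with at least 10 counts, and the black bar is the median of the list. IL-4 marker genes have the highest median (4.24) and the study's M1 signature the lowest (−0.71). The cell cycle genes have a median of 0.67 and run from −0.33 to 1.74.

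The genes with the largest differences in CPM between the 2 libraries were Lpl, Mmp12, Tfrc, Apoe, Anxa1, Adam8, Selenop, Slc7a2, Atp6v0a1 and Fam129b, a ranking that also depends on transcript length. Lpl went from 779 CPM in M0 to 2546 in M2. Tfrc, the transferrin receptor for iron uptake, had 42742 counts in M2 and 8271 in M0 (2.61, interval 2.57 to 2.64), opposite in direction to the iron exporter Slc40a1. Anxa1 (47525 and 25482 counts, 1.14), Adam8 (43410 and 24697, 1.05), Atp6v0a1 (29529 and 12081, 1.53) and Fam129b (32031 and 15628, 1.27) were called higher, and Apoe and Selenop were the 2 called lower.

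The same comparison without the drug shows where the response differs. It uses the M2 and M0 control libraries, which are not part of the ratio with the drug, and it called 526 genes higher (3.8% of 13830) and 966 lower (6.98%). Of the genes called higher with the drug, 497 were compared without it, and of these 260 were called higher and 22 lower. Put as shares of each list, 48.3% of the genes called higher with the drug were among those called higher without it, and 49.4% of those called higher without it were called higher with it. The lower genes were shared less evenly: 36.8% of those called lower with the drug were called lower without it, and 21.4% of those called lower without it were called lower with it. Over 13340 genes compared in both pairs, the log2 ratios with and without the drug had a Pearson's r of 0.58 and a Spearman's rho of 0.32 across genes, which are not independent replicates. For the 10327 genes that reached 100 counts in a library of each pair, these were 0.64 and 0.34. The SD of the log2 ratios of those genes was 0.57 with the drug and 0.62 without it.

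All 15 genes with the highest ratios with the drug were also called higher without it, and so were 12 of the 15 lowest called lower. For 9 of the 15 highest, the difference between the log2 ratios (with minus without) was not called, meaning that it was under a factor of 2 or that its counting interval included 0. Where M0 counts are near 0, such intervals are wide: that of Retnla ran from −3.34 to 7.97. Over all genes, the difference was called higher with the drug for 855 genes (5.97% of 14331) and lower for 300 (2.09%).

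The genes that IL4 raised less in the presence of the drug included several lectins. Mgl2 had 305 and 4 counts with the drug and 2017 and 1 without it, a difference of −3.82 (interval −6.49 to −1.15). Clec10a (237 and 67 counts with the drug, 1449 and 83 without it) differed by −1.82 (interval −2.32 to −1.31) and Clec7a by −1.42 (interval −1.61 to −1.22). All 3 nonetheless were called higher in M2 than in M0 with the drug. For Mrc1 the difference was −0.81 (interval −0.97 to −0.66), under a factor of 2. Ms4a4a (1230 and 974 counts with the drug, 419 and 17 without it, difference −3.76) and the elastic fibre gene Fbln5 (60 and 27 counts, 589 and 15 without the drug, difference −3.63) were also among the 10 lowest differences. For Ms4a4a it was the M0 level that stood apart, at 29.5 CPM with the drug and 0.553 without it, while M2 was at 44.0 CPM with the drug and 11.5 without it.

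Hpgd and Ch25h were called lower in M2 with the drug. Hpgd, which breaks down prostaglandins, had 34 and 148 counts with the drug and 6 and 0 without it, too few to be compared in the control pair. Ch25h, the enzyme that makes 25-hydroxycholesterol, had 4 and 34 counts with the drug and 678 and 405 without it (difference −3.20, interval −4.62 to −1.77). Dmd, Srpx2, Fam20a and Sult1a1 were also among the 10 lowest differences, with values between −3.18 and −2.11. All 4 were called higher in M2 without the drug. With it, Srpx2 was called higher (28 and 11 counts, 1.58), and Dmd (−0.88), Fam20a (−0.13) and Sult1a1 (−0.08) were not called. Apoe, which was lower in M2 in both pairs, had 1018 and 1184 counts without the drug, a log2 ratio of −0.47, and a difference of −1.73 (interval −1.86 to −1.61). Its M0 level was 38.5 CPM in the control and 1260 CPM with the drug.

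Other IL4 genes had larger ratios with the drug. Il4i1 had 146 and 5 counts without it, and the difference was 2.33 (interval 0.87 to 3.80). Ccl22 had 172 and 9 counts without the drug (difference 2.51, interval 0.97 to 4.04), and Hr had 329 and 24 (difference 2.15, interval 1.23 to 3.07). Batf3 (95 and 23 counts without the drug, difference 2.21, interval 1.20 to 3.22), Dcstamp (340 and 74, difference 1.93, interval 1.37 to 2.49) and Myc (1786 and 1142, difference 1.96, interval 1.71 to 2.21) were in the same direction. Of 21 IL-4 marker genes, 3 differences were called higher with the drug and 4 lower, against 5.97% and 2.09% of all genes. The list thus did not go 1 way. For Klf4 the difference was −0.38 (interval −0.51 to −0.25), for Irf4 −0.15 (interval −0.61 to 0.30) and for Pparg 0.44 (interval 0.23 to 0.65).

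Ccl2 and Ccl7 were higher in M2 in both pairs, at very different levels. Ccl7 had 30289 counts in M2 and 3304 in M0 without the drug, a log2 ratio of 2.95, against 368 and 43 counts and 3.33 with it. The difference of 0.37 had an interval from −0.08 to 0.83. Ccl2 had 30618 and 11274 counts without the drug (1.19) and 649 and 149 with it (2.36), a difference of 1.16 (interval 0.91 to 1.42). The ratios thus lay in the same direction at levels that were much lower in both libraries with the drug.

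The cell cycle genes had medians of opposite sign with and without the drug. Without the drug, 20 of 26 genes were called lower in M2, against 6.98% of all genes compared, and 25 of 26 had a ratio below 1. The median was −1.20. With the drug, 2 were called higher and the median was 0.67. The difference was called higher for 23 of the 26, against 5.97% of all genes, and lower for none. Mki67 had 6231 counts in M2 and 5181 in M0 with the drug, and 7534 and 18430 without it, a difference of 2.04 (interval 1.98 to 2.11). Rrm2, a subunit of ribonucleotide reductase, had 2764 and 1771 with the drug and 3937 and 9616 without it, a difference of 2.42 (interval 2.31 to 2.52). The summed level of the list was 1966 CPM in M2 and 1187 in M0 with the drug, and 3392 in M2 and 5372 in M0 without it. The M0 control library thus held the highest level of the 4, and the M0 library with the drug the lowest. Ccnd1 was higher in M2 in both pairs, with 51132 and 29262 counts (0.56) without the drug. Of the 10 highest differences over all genes, E2f7, a repressor in the cell cycle, was another of this kind (286 and 211 counts with the drug, 298 and 1160 without it, 2.88).

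Interferon-stimulated genes had medians below 0 in both pairs, nearer to 0 with the drug. Without it, 18 of 24 were called lower, against 6.98% of all genes compared, with a median of −1.61. All 24 ratios without the drug were below 1, against 6730 of 13830 over all genes. With the drug, 21 of 24 were below 1, and Usp18 (0.59), Ifi204 (0.44) and Zbp1 (0.21) were above it, Usp18 and Ifi204 with an interval that excluded 1. The difference was above 0 for all 24 and called higher for 15, against 6565 of 14331 genes above 0 and 5.97% called higher. Isg15 had 146 counts in M2 and 173 in M0 with the drug, and 272 and 1245 without it, a difference of 2.43 (interval 2.06 to 2.80). The summed level of the list was 578 and 762 CPM in M2 and M0 with the drug, and 852 and 2290 CPM without it, so that the M0 control library again stood highest. Acod1, the enzyme that makes itaconate, was similar (549 and 642 counts with the drug, 150 and 1085 without it, difference 3.11, interval 2.82 to 3.41). Gpr84 (69 and 171 counts, 27 and 345 without the drug) and Itga8 (33 and 146, 33 and 711 without the drug) were lower in M2 in both pairs, by less with the drug.

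**Figure D5:**
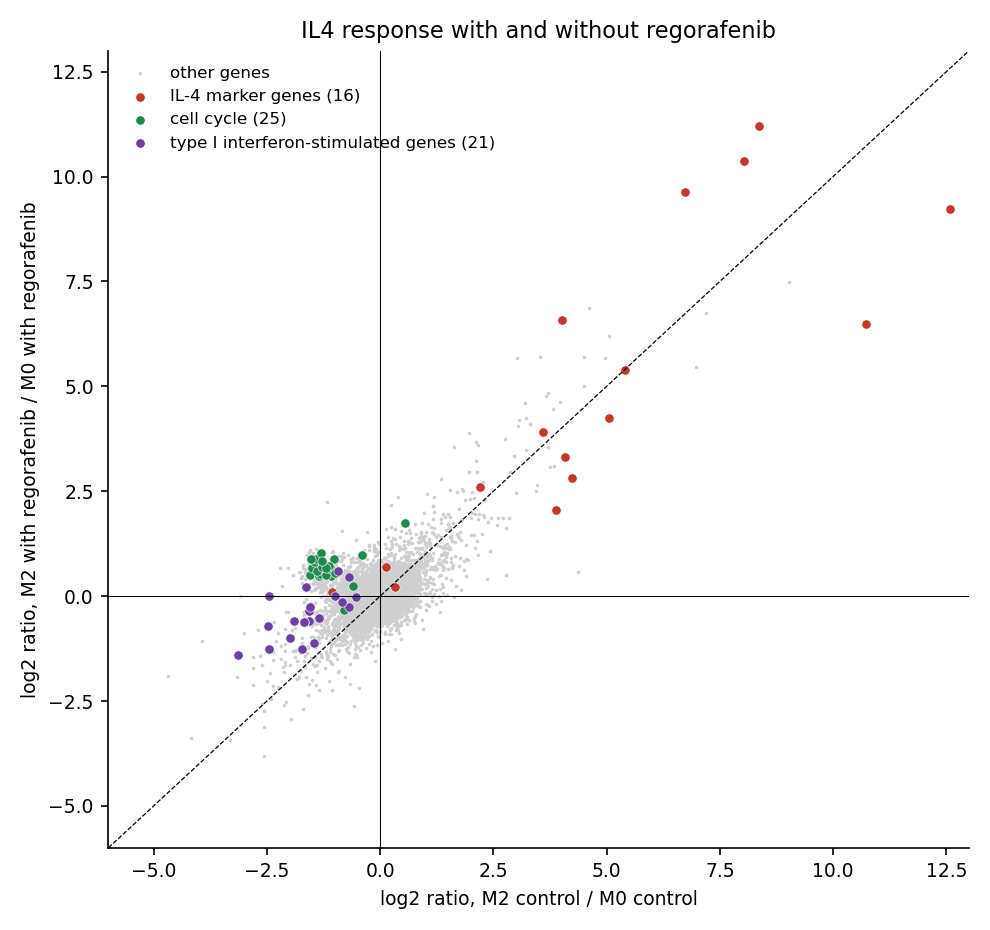
The log2 ratio of M2 to M0 with regorafenib is plotted against the same ratio in the controls for the 10327 genes that reached 100 counts in a library of each pair, and the dashed line marks equal ratios (0 counts drawn at 3 counts). Mgl2 (10.73 without the drug and 6.49 with it) lies far below the line, most cell cycle genes lie in the upper left part, and the interferon-stimulated genes lie above the line.

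Of the 10 highest differences, Ak4, Gfra2, Krt13 and F2rl2 were called higher with the drug and not without it. Ak4, a mitochondrial adenylate kinase, had 99 and 16 counts with the drug and 113 and 163 without it (difference 3.60, interval 2.78 to 4.43). Krt13 had 215 and 31 with the drug and 34 and 33 without it (3.22, interval 2.35 to 4.09), and F2rl2 had 90 and 15 with the drug and 303 and 286 without it (2.95, interval 2.14 to 3.76). Bank1 and Tgtp2 were near 1 in ratio with the drug and lower without it. For Tgtp2, 76.8% of the 100-base words occur in another gene, mainly Tgtp1, so its counts are uncertain.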

How the data were processed

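The values are whole-number gene counts that the authors deposited, made by the submitters with cutadapt 2.4 and STAR 2.7.2a by their processing notes, on GRCm38 with a Gencode annotation. The RNA was sequenced as stranded mRNA libraries with 2 reads of 100 bases. STAR's gene counts leave out reads that map to several genes or places, so counts of near-identical genes are uncertain, and the strand used in the counting is not given in the sources used here. The NOISeq analysis of the study was not used here. All 6 count columns were mapped to a sample, and 0 columns were left out.

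Totals ran from 25359309 to 34898342 counts. TMM factors (edgeR 4.0.16, R 4.3.3) over all 6 libraries, the M1 pair included, were 0.820 to 1.12. Genes with at least 10 counts in one library of a pair were compared (Python 3.11.15 with scipy 1.17.1, pandas 2.3.3, numpy 2.4.6, figures by matplotlib 3.10.9). The log2 ratio of scaled counts had a 95% exact conditional (Clopper-Pearson) interval, and a count of 0 was set to 0.5 for ratios and to 3 for printed bounds and calls. Differences between log2 ratios with and without the drug had Wald intervals from the 4 counts, over genes with at least 10 counts in one of the 4 libraries. The code was tested on simulated data. Of the gene IDs, 53229 were named with and 1180 without their version, and 37 had no name.

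The gene lists, the members and the comparison were chosen with earlier results of these data known. Named genes were the 15 highest and 15 lowest ratios, the 10 highest and 10 lowest differences, genes called in opposite directions (all with 100 counts or more), the 10 largest differences in CPM, list members, and 4 promoters. Symbols Atp6v0d, Isf20, Pilr1 and Zpb1 of the study's signatures had no match. Alternatives were other scalings (TMM over 2 libraries, upper quartile, total counts, DESeq2 1.42.0 size factors), count minimums, 1 CPM added and a fold of 4. 1 gene is not reported here.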

Additional observations from a re-analysis of the deposited data

Results flagged for a closer look

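The 8 genes below were called in opposite directions with and without regorafenib, and each pair had a library of 100 counts or more. With 1 library per condition the difference itself was not tested, and the values are log2 ratios of M2 to M0 with the drug minus those without it, with counting intervals. Without this limit on counts, 22 genes were called higher with the drug and lower without it, and 3 the other way. All 8 given here were higher in M2 than in M0 with the drug and lower without it. The largest difference was 3.40 (interval 2.87 to 3.93) for Gfra2, a receptor for neurturin, with 169 and 42 counts with the drug and 261 and 495 without it. The others include genes of DNA replication and of its checkpoints. Uhrf1, which maintains DNA methylation at replication, differed by 2.66 (1639 and 896 counts with the drug, 2620 and 6450 without it), and Cdc6, which loads the replicative helicase, by 2.53 (332 and 181, 676 and 1527). Pkmyt1, a kinase that restrains Cdk1, differed by 2.50 (574 and 332, 571 and 1337), Mcm5 by 2.35 and the checkpoint kinase gene Chek1 by 2.11 (208 and 118, 346 and 608). The long non-coding RNA gene D430020J02Rik differed by 2.62 (118 and 67, 108 and 271). Depdc1a differed by 2.11 (187 and 104, 217 and 374), and 51.7% of its 100-base words occur in another gene, mainly Gm5596. With the drug, 7 of the 8 were between 1.03 and 1.11 in log2 ratio, just past the fold of 2 that defines a call.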

How the results depend on the processing

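Under the 4 other scalings (TMM over the 2 libraries, DESeq2 size factors, upper quartile and total counts), the counts of called genes stayed within 1.5 times, and the medians of the lists kept their sign. The share of higher among called genes was 48.9% in the main setting and 46.1 to 51.7% under them. The slight excess of lower calls (538 higher, 562 lower) turned with DESeq2 size factors (559 higher, 522 lower), and the median of all genes lay between −0.06 and −0.01. With at least 100 counts in one library, 270 genes were called higher and 222 lower with the drug and 299 and 564 without it, since fewer genes were compared, and 132 differences were called lower. The lower genes were then 1 for MHC class II and costimulation and 1 for chemokines, the higher genes 1 for the resident macrophage list and 1 for the ERK response, and the medians −0.50 for inflammatory markers, 0.057 for lectins and −0.39 for the resident macrophage list. With 1 CPM added to each level, which shrinks ratios of low genes, the calls were 266 higher and 185 lower with the drug, 280 and 500 without it, and 526 and 86 for the difference. The share of higher calls with the drug was then 59.0%, the median of IL-4 marker genes 2.79, and the calls 1 lower for MHC class II, 1 lower for chemokines, 0 higher for the resident macrophage list and 1 higher for the ERK response. At a fold of 4, 197 genes were higher and 134 lower. With no filter, the medians were 0.30 for fusion and matrix turnover and −0.39 for the resident macrophage list. Higher calls thus outnumbered lower ones with at least 100 counts, with 1 CPM added, at a fold of 4 and with no filter (584 and 580). The medians kept their sign. Of 130 values of single named genes, 38 moved by more than their counting interval with 1 CPM added, 12 with total counts, 6 with DESeq2 size factors and 4 with the upper quartile. No paired analysis was possible because each condition has 1 library, and no library could be left out for the same reason. Depth limits the ratios of genes near 0 counts in M0 cells, where intervals span several log2 units.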

Other observations

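Further genes outside the lists and rules above were chosen after their values were seen, and are given as values only. Genes called higher in M2 with the drug included the integrin gene Itgax (9449 counts in M2 and 451 in M0, log2 ratio 4.63, interval 4.49 to 4.77), Itgb3 (835 and 172, 2.52), Lrrc32, which presents latent TGF-beta (158 and 5, 5.22, interval 3.97 to 6.86), and the IL-33 receptor gene Il1rl1 (123 and 6, 4.59, interval 3.43 to 6.07). Without the drug, Itgax had 5849 and 316 counts and a log2 ratio of 3.96. The genes Fn1 (fibronectin) at 779 and 188 counts (2.29), F10 (coagulation factor X) at 629 and 207 (1.84) and F7 (factor VII) at 154 and 47 (1.95) were also called higher. For Fn1, F10 and F7 the differences from the ratios without the drug were −0.01, −0.32 and −0.13, each with an interval that included 0.

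The purinergic receptor gene P2ry1 had 1992 and 471 counts with the drug (2.32, interval 2.17 to 2.47), while P2ry12, a neighbour in function of P2ry13, had 50 and 276 (−2.23, interval −2.69 to −1.79). Among those called lower were C5ar1 at 419 and 1939 counts (−1.97), Alox5 at 569 and 2659 (−1.99), Nlrp3 at 431 and 1580 (−1.64) and Aoah, which inactivates lipopolysaccharide, at 114 and 767 (−2.51). These 4 genes and both P2ry genes were called in the same direction without the drug. Igf1 (36140 and 22695 counts with the drug, 0.91; 43775 and 10805 without it, 1.77) differed by −0.86 (interval −0.90 to −0.82). Pdgfc (1327 and 1179 with the drug, 1379 and 227 without it) differed by −1.94 (interval −2.18 to −1.71). Complement C3 was called higher with the drug (8861 and 4451, 1.23) and not without it (1964 and 1972, −0.26), a difference of 1.49 (interval 1.38 to 1.59).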
